A study of Drosophila melanogaster with 9 samples.

Results

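The genes described here encode the Methuselah-like receptors of *Drosophila melanogaster*, and they were followed in whole late embryos of 3 genotypes. They were chosen by name, as *mth* and the *mthl* genes listed with it (*mthl1*, *mthl2*, *mthl3*, *mthl4*, *mthl5*, *mthl8*, *mthl9*, *mthl10* and *mthl14*), which made 10 of the 15228 genes counted. The reason for the choice was that *mthl8* was higher in both mutants, so the difference of *mthl8* from control is given below as a description, without a test. RNA was sequenced from 9 samples of 200 embryos of stage 16, with 3 independent samples per genotype. The control embryos carried the label w with a WT genotype, the *pri* embryos were *pri S18.1* mutants, and the *ken* embryos carried *ken1* over the deficiency *Df(2R)BSC660*, which removes *ken*. Mutant embryos of both kinds were picked by hand with the help of a GFP-marked balancer chromosome. *pri* encodes small peptides needed for epidermal differentiation and *ken* encodes a transcriptional repressor, and the comparison of each mutant with control asked which genes depend on either. Both mutants were set against the same 3 control samples, so these comparisons were not independent of each other.

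Methuselah receptors are G protein-coupled receptors of family B, the family of the secretin receptor, with an extracellular domain that is particular to insects. Mth, the first one described, is known for the long life and stress resistance of flies in which it is reduced, and Stunted (*sun*) is a peptide that binds it. Mthl10 is the receptor of the growth-blocking peptides, which are cytokine-like peptides that act on blood cells, immunity and growth. Mthl1, also called Mist, receives the Folded gastrulation (Fog) signal that makes mesodermal cells constrict at gastrulation. Mthl5 acts in the heart tube and is needed for the normal shape of that organ. For *mthl2*, *mthl3*, *mthl4*, *mthl8*, *mthl9* and *mthl14* no role is given here.

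Depth ranged from 21048610 to 28859395 counted reads per sample. In the *ken* embryos the deficiency removes 1 copy of *ken*, and the other copy is the *ken1* allele. The gene had a mean of 6940 ± 500 normalized counts in control (SD, n = 3), 6997 ± 1237 in *pri* and 1240 ± 85.1 in *ken*. The log2 fold change between *ken* and control was -2.49 (SE 0.13, adjusted p = 2.54e-05). Normalized counts are read counts divided by the size factor of the sample, so they can be compared between samples for the same gene. Adjusted p-values are from the quasi-likelihood test of edgeR with Benjamini-Hochberg adjustment over all 15228 genes, and a gene is called when its value is under 0.05. Markers of muscle, neurons, heart, trachea, epidermis, hemocytes and midgut had reads in each genotype, and of the 6 fat body markers 1 was at 0 in control and 1 in *pri*. Genes were looked up by name, which found 4 of the 5 listed for trachea and 4 of the 5 for epidermis. The names not found were *dys* and *svb*, and these genes may be in the table under another name. In *pri*, 2 of 4 trachea markers (*serp* and *verm*) and 2 of 4 epidermis markers (*sha* and *Cht7*) were called as lower, where 3.83% of all genes were. The means of *trh* (adjusted p = 0.0514), *btl* (0.132) and *kkv* (0.0523) were lower in *pri* but did not pass. That of *grh* was not lower (log2 fold change 0.11, adjusted p = 0.508). The summed level of the trachea markers was 48220 to 50234 normalized counts in *pri* against 64845 to 68503 in control, with 59090 to 64312 in *ken*, and that of the epidermis markers was 18180 to 19513 in *pri* against 21961 to 25616 in control, with 24234 to 28006 in *ken*. Most of the trachea sum came from *verm* (mean 41015.5 in control and 31484.5 in *pri*) and *serp* (22470.6 and 15334.3). The part of trachea and epidermis in the *pri* differences given below was not tested. The RNA came from whole embryos, so fewer cells of a type and less RNA per cell cannot be told apart. In the study *sha* is a direct target of Svb, a transcription factor that Pri peptides activate. In *pri* the level of *sha* is therefore not a measure of the amount of epidermis alone.

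Of the 9 members other than *mthl8*, 1 was called between *pri* and control, *mthl9*, which was higher in *pri*. Over all genes, 7.51% were called in that comparison, 3.68% as higher and 3.83% as lower. None of the 9 was called between *ken* and control, where 5.02% of all genes were called (2.21% higher and 2.81% lower), although 2 had an unadjusted p under 0.05 and 1, *mthl9*, was called as lower by DESeq2. With the replicate number as a block, *mthl9* was called there too, and 1210 genes were called in place of 765. Between the mutants 1 of 10 members was called, again *mthl9*, against 8.12% of all genes (4.03% higher and 4.09% lower in *pri*). The samples of the groups did not overlap for 3 of 9 members between *pri* and control (31.0% of all genes), for 3 of 9 between *ken* and control (24.9%) and for 3 of 10 between the mutants (26.5%). The median log2 fold change of the members tested was 0.03 for *pri* against control, -0.06 for *ken* against control and 0.06 between the mutants, and over all genes it was 0.02, 0.01 and 0.01. As a group the receptor genes therefore gave counts close to those of the whole table, and what follows concerns single genes.

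**Figure D1:**
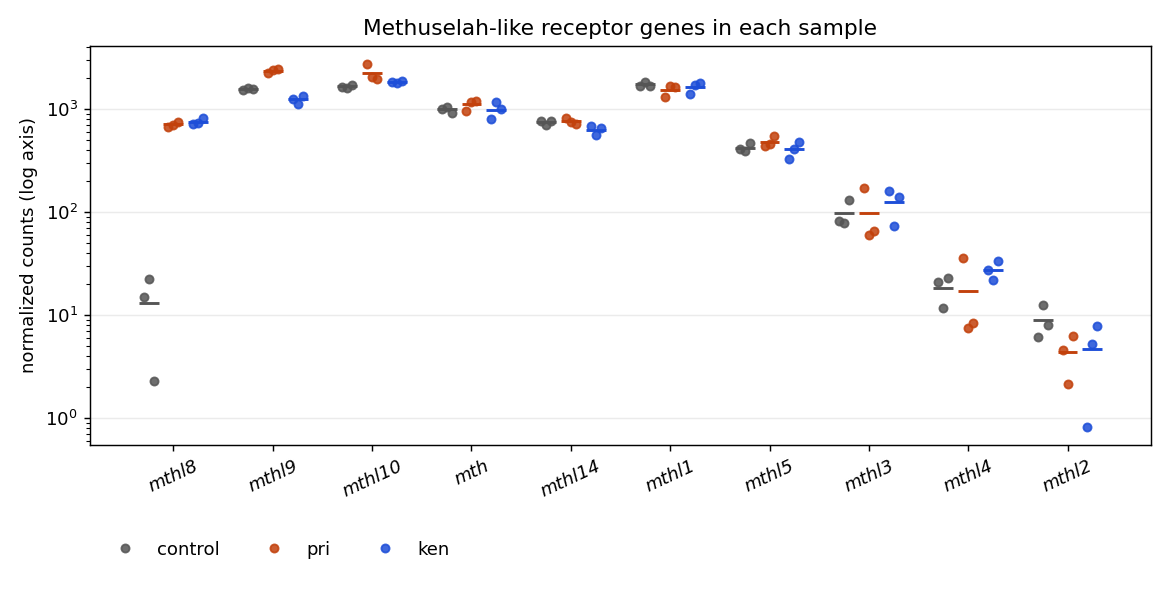
Normalized counts (log axis) of the 10 Methuselah-like receptor genes in each sample, with 3 points per genotype and a bar at the mean. *mthl8* lies between 2.28 and 22.5 in control and between 674 and 826 in the mutants, while *mthl9* is highest in *pri* and lowest in *ken*.

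*mthl8* was almost silent in control embryos and well expressed in both mutants. It reached 14.8, 22.5 and 2.28 normalized counts in the control samples. In the *pri* samples it reached 674, 705 and 755, and in the *ken* samples 724, 729 and 826. Every mutant sample was far above every control sample, and the ranges of the 2 mutants overlapped. The means were 13.2 ± 10.2 in control, 711 ± 41.0 in *pri* and 760 ± 57.8 in *ken* (SD, n = 3 each), which is 53.9 times the control mean in *pri* and 57.6 times in *ken*. On the log2 scale the fitted differences were 5.68 (SE 0.41) and 5.77 (SE 0.42). These values chose the gene and carry no test.

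The control level of *mthl8* rested on few reads. The 3 control samples held 17, 25 and 2 reads, with exact 95% Poisson intervals of 9.90 to 27.2, 16.2 to 36.9 and 0.242 to 7.22, which cover counting error only. The intervals of replicates 2 and 3 do not meet, so these controls differed by more than counting error. The spread, as SD over mean, was 77.2% in control, 5.77% in *pri* and 7.61% in *ken*. Leaving out 1 sample at a time moved the log2 fold change from 5.23 to 6.26 in *pri* and from 5.34 to 6.35 in *ken*.

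The contrast between the mutants was not part of the choice and could be tested. *mthl8* differed between *pri* and *ken* by a log2 fold change of -0.09, with a 95% interval from -0.79 to 0.61 (adjusted p = 0.901). No difference was therefore detected, and the interval leaves room for a difference of either sign.

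Levels of different genes were compared per kilobase of annotated exon. On that scale *mthl8*, with 3413 exonic bases, stood at 3.87 normalized counts per kilobase in control, 208 in *pri* and 223 in *ken*. Among the 15 genes of the *mth* family in the table its rank went from 12 in control to 7 in *pri* and 6 in *ken*. Its share of the summed level per kilobase of the family was 0.147% in control, 6.07% in *pri* and 8.33% in *ken*. In the mutants it stood near *mthl5*, which had 248 per kilobase in *pri* and 208 in *ken*. In control it stood near *mthl2*, at 4.37 per kilobase.

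*mthl8* (FBgn0052475) lies on chromosome arm 3L from 22428 to 26308 on the plus strand (dm6), at the tip of the arm. None of the annotated genes of the table lies between it and the end of the sequence, a mobile element begins 1345 bases to its right, and the next gene of the table, *CG43149*, begins 27564 bases to its right. *CG43149* had 56.8, 52.1 and 45.6 normalized counts in control, 455, 98.6 and 96.2 in *pri*, and 261, 94.8 and 157 in *ken*. Both mutants lay above control in all samples, with log2 fold changes of 2.06 (SE 0.62, adjusted p = 0.0837) and 1.73 (SE 0.62, adjusted p = 0.175), which did not pass the test.

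The second neighbour, *Lsp1gamma*, encodes a subunit of a larval serum storage protein and rose in both mutants. It had 35.8, 22.5 and 24.0 normalized counts in control, 84.8, 97.5 and 107 in *pri*, and 60.9, 69.5 and 83.9 in *ken*. No mutant sample overlapped with control. On the log2 scale the change was 1.80 in *pri* (SE 0.24, adjusted p = 0.00273) and 1.37 in *ken* (SE 0.24, adjusted p = 0.0120). The *ken* call was lost without control replicate 2 (adjusted p = 0.0545), without control replicate 3 (0.0587) and without *ken* replicate 3 (0.05). The 3 further neighbours, *lncRNA:CR43988*, *CG13405* and *CG12483*, had mean levels under 10 normalized counts in every genotype and none was called.

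The genes most like *mthl8* over the 9 samples were found by the Pearson correlation of log2(normalized count + 1), among genes with a mean of at least 50 normalized counts. They were *Cyp4p2*, a cytochrome P450 gene (r = 0.987), *asRNA:CR45600* (0.983), *CG6602* (0.981), *rosy* (*ry*), which encodes xanthine dehydrogenase (0.972), and *CG42329* (0.968). These correlations describe the same 9 libraries that separate mutants from control, and carry no p. *Cyp4p2* had means of 112 ± 26.4, 1587 ± 145 and 1396 ± 84.5 normalized counts in control, *pri* and *ken* (SD, n = 3).

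*asRNA:CR45600* was as near to silent in control as *mthl8*. It had 6.11, 18.0 and 5.70 normalized counts in control, and means of 412 ± 94.7 in *pri* and 441 ± 21.1 in *ken*. *CG42329* had 9.61, 50.3 and 2.28 in control, and means of 300 ± 43.6 and 343 ± 173. Control replicate 2 was the highest of the 3 controls for *mthl8* and for each of these 5 genes. The lowest was control replicate 3 in all 6. These controls were among the samples of the correlation that chose the 5 genes, so a shared order of controls is in part built into the choice.

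*ry* was already expressed in control, at 958 ± 24.2 normalized counts, and reached 4089 ± 403 in *pri* and 4358 ± 262 in *ken*. *ry* is a common marker gene of fly stocks, and the class of P element insertion that made *ken1* carries a copy of it. Whether the *pri S18.1* stock carries such a copy is not given in the sources used here. The origin of the *ry* reads was not tested in either mutant. The control, *pri* and *ken* embryos came from different stocks. The genetic background of the stocks and the *pri* or *ken* genotype cannot be told apart in this design, for *mthl8* as for these genes.

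**Figure D2:**
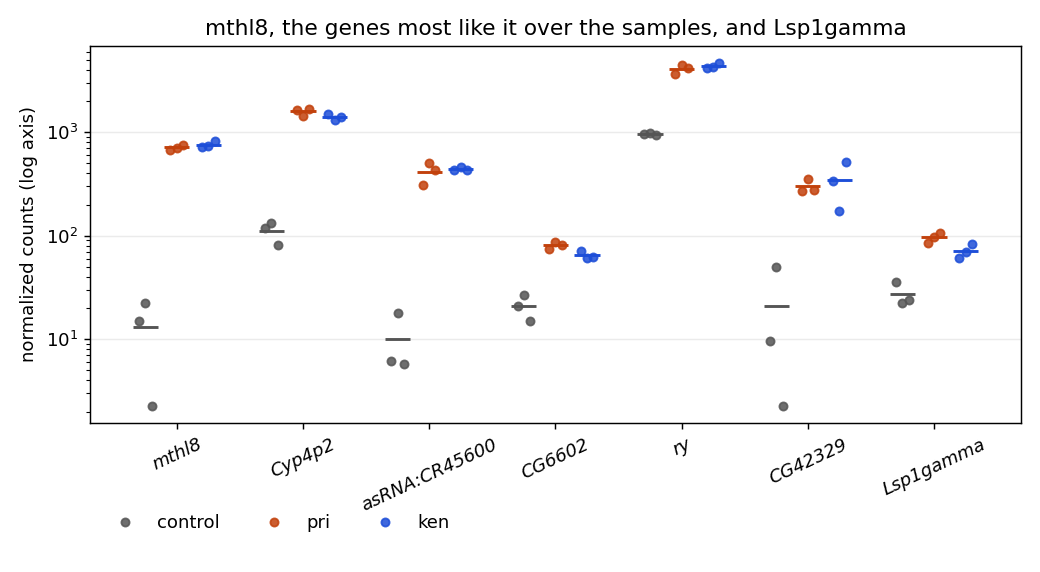
Normalized counts (log axis) of *mthl8*, of the 5 genes whose pattern over the 9 samples was most like it, and of its neighbour *Lsp1gamma*, with 3 points per genotype and a bar at the mean. In each of the 7 genes all mutant samples lie above all control samples, and control replicate 2 is the highest control for all but *Lsp1gamma*.

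*mthl9* was the only member with every *pri* sample above and every *ken* sample below all controls. It had 1532, 1590 and 1585 normalized counts in control, 2243, 2412 and 2435 in *pri*, and 1266, 1115 and 1354 in *ken*. The 3 groups did not overlap at all, with *pri* highest and *ken* lowest. The means were 1569 ± 32.3, 2363 ± 105 and 1245 ± 121 (SD, n = 3). By means alone *mth*, *mthl5* and *mthl14* had the same order of genotypes, and *mthl4* had the reverse order, with samples that overlapped.

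*mthl9* rose in *pri* by 0.59 on the log2 scale (SE 0.09, adjusted p = 0.00397), 50.7% above the control mean. The call held in each of the 17 other settings of the analysis, with adjusted p between 4.03e-08 and 0.0234. In *ken* its log2 fold change was -0.34 (SE 0.09, adjusted p = 0.0597), with a mean 20.6% under control, which did not pass the test. With the replicate number as a block the adjusted p for *ken* was 0.0478, and DESeq2 gave 0.00927. In all, 5 of the 17 settings passed for *ken*, and the largest adjusted p was 0.188. The difference between the mutants was larger than either, 0.93 (SE 0.09, 95% interval 0.73 to 1.12, adjusted p = 0.000411), and held in 17 of 17 settings.

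The order of genotypes seen in *mthl9*, with *pri* highest and *ken* lowest, was shared by the means of 2 of 8 hemocyte markers, *NimC1* and *PPO2*. The share of all genes with this order was not counted. It was not particular to hemocyte genes, as the means of *mth*, *mthl5*, *mthl14*, *sun*, *Gbp1* and *Gbp3*, none of them called, had it too. *NimC1*, a phagocytosis receptor of plasmatocytes, had 131 ± 17.1 normalized counts in control, 267 ± 25.8 in *pri* and 71.3 ± 5.82 in *ken*. It rose in *pri* (log2 fold change 1.02, SE 0.15, adjusted p = 0.00486), fell in *ken* (-0.88, SE 0.16, adjusted p = 0.0131) and differed between the mutants by 1.90 (SE 0.16, adjusted p = 0.000255). *PPO2*, a prophenoloxidase of crystal cells, had 6166 ± 79.7, 9855 ± 712 and 5188 ± 1240, rose in *pri* (0.68, SE 0.15, adjusted p = 0.0253) and was not called in *ken* (-0.25, SE 0.15, adjusted p = 0.435). Of the 8 markers 3 were called as higher in *pri*, *NimC1*, *PPO2* and *lz*, where 3.68% of all genes were, and 1 was called as lower in *ken*, where 2.81% were. The summed level of the 8 markers ranged from 17248 to 19112 normalized counts in control, from 21494 to 25112 in *pri* and from 12555 to 18733 in *ken*, and no marker was at 0. *PPO2* and *PPO1* had the highest means of the 8 in each genotype and weighed most in the summed level. The 6 markers other than *NimC1* and *PPO2* did not share the order of *mthl9*. The means of *lz*, a transcription factor of crystal cells, and *He* were higher in both mutants than in control, and those of *Hml*, *srp* and *Pxn* were lower in both. *PPO1* had 4802 ± 362, 7803 ± 426 and 4835 ± 1434 normalized counts in control, *pri* and *ken*, so *ken* was level with control. In *pri* the log2 fold change of *PPO1* was 0.70 (SE 0.18, adjusted p = 0.0520), which did not pass the test. *lz* had 24.2 ± 1.87, 68.9 ± 32.7 and 37.1 ± 4.36 normalized counts in control, *pri* and *ken*, and *Hml* had 116 ± 49.2, 69.3 ± 67.1 and 60.2 ± 40.2. The part of blood cells in the *mthl9* values was not tested.

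*mthl9* (FBgn0035131) lies on 3L from 329822 to 332309 on the minus strand, inside *Ptpmeg*, which is transcribed from the other strand. Whether the counting used strand is not given in the sources used here. *Ptpmeg* had 4410 ± 104 normalized counts in control, 4386 ± 482 in *pri* and 4602 ± 257 in *ken* and was not called, so its counts did not have the order of *mthl9*. Per kilobase *mthl9* was the highest of the 15 family genes in each genotype, at 735 in control, 1108 in *pri* and 584 in *ken*. With the length of the longest transcript in place of all exons, *mthl10* came before it in *ken*.

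*mthl10* and *mth* are the next genes on the same strand, 491 bases from *mthl9* and then 462 bases further, and they too lie inside *Ptpmeg*. *mthl10*, the growth-blocking peptide receptor, had 1658, 1625 and 1731 normalized counts in control, 2747, 2049 and 1953 in *pri*, and 1826, 1787 and 1888 in *ken*. Each *pri* and each *ken* sample was above each control sample, and *pri* replicate 1 stood above the other samples. The log2 fold change was 0.43 in *pri* (SE 0.12, adjusted p = 0.0680), 0.13 in *ken* (SE 0.12, adjusted p = 0.637) and 0.30 between the mutants (SE 0.12, adjusted p = 0.186), so none was called. For *pri*, DESeq2 gave an adjusted p of 0.0197 and library totals in place of TMM factors gave 0.0373. Without *pri* replicate 1 and *ken* replicate 1 the log2 fold change was 0.26 with an adjusted p of 0.0477.

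*mth* itself had 1009, 1052 and 925 normalized counts in control, 956, 1187 and 1212 in *pri*, and 805, 1162 and 1010 in *ken*. The groups overlapped. The log2 fold changes were 0.17 in *pri*, with a 95% interval from -0.16 to 0.49 (adjusted p = 0.534), and -0.01 in *ken*, from -0.33 to 0.31 (adjusted p = 1). The difference between the mutants was 0.18, from -0.15 to 0.50 (adjusted p = 0.515). The 3 adjacent genes thus gave a call for *mthl9* only, and whether *mthl9* differed from its neighbours in response was not tested.

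*mthl14* lies on the same arm, between *mthl8* and *mthl9*, from 247491 to 250305 on the plus strand. It had 763, 710 and 775 normalized counts in control, 821, 750 and 720 in *pri*, and 680, 565 and 657 in *ken*. The *ken* samples were below all others, and the *pri* and control samples overlapped. The log2 fold change was -0.24 in *ken* (SE 0.10, adjusted p = 0.245) and 0.27 between the mutants (SE 0.10, adjusted p = 0.148), and neither was called.

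**Figure D3:**
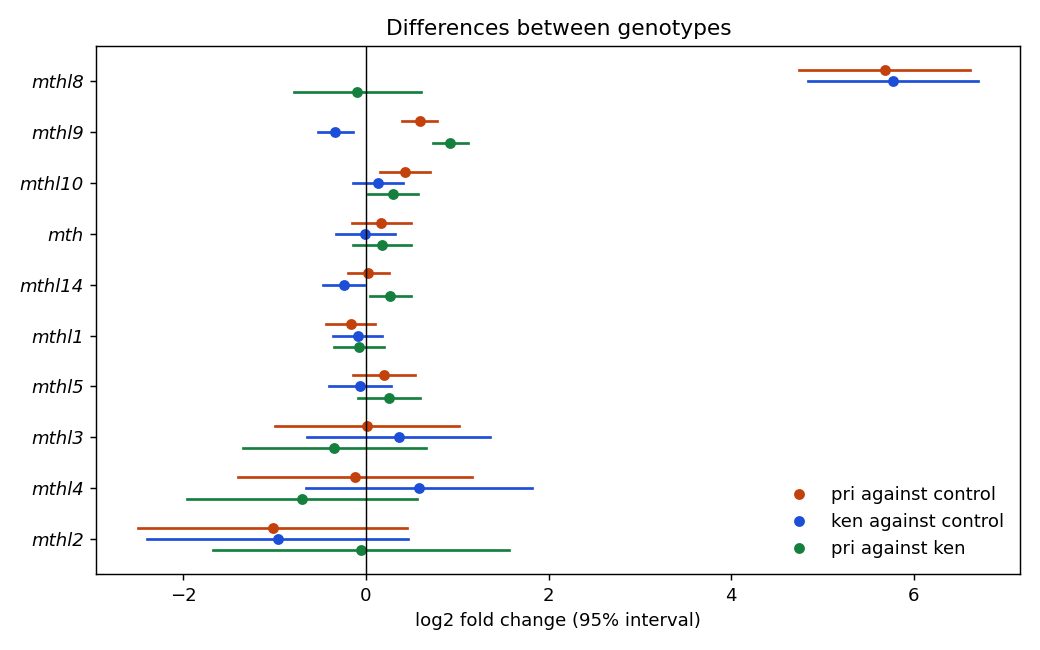
Log2 fold changes of the 10 genes with 95% intervals for each mutant against control and for *pri* against the *ken* mutant, from the fit on all 9 samples. *mthl9* has its *pri* point at 0.59, its *ken* point at -0.34 and the difference at 0.93, and the intervals of *mthl2*, *mthl3* and *mthl4* are the widest of the 9 tested against control.

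*mthl1*, the Fog receptor Mist, had 1694, 1839 and 1695 normalized counts in control, 1309, 1691 and 1657 in *pri*, and 1419, 1718 and 1780 in *ken*. The *pri* samples were all under the lowest control, by a small margin for *pri* replicate 2, and *ken* overlapped with control. On the log2 scale the difference was -0.17 in *pri* (95% interval -0.44 to 0.10, adjusted p = 0.452), -0.09 in *ken* (-0.36 to 0.18, adjusted p = 0.760) and -0.08 between the mutants (-0.35 to 0.19, adjusted p = 0.755).

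A short antisense gene inside *mthl1*, *lncRNA:CR46147*, fell in both mutants. It had 19.2, 25.2 and 21.7 normalized counts in control, 4.58, 3.18 and 0 in *pri*, and 2.47, 4.21 and 4.94 in *ken*. All mutant samples were under all control samples. The log2 fold change was -3.06 in *pri* (SE 0.59, adjusted p = 0.0148) and -2.50 in *ken* (SE 0.54, adjusted p = 0.0327). The *pri* call was lost without control replicate 2 (adjusted p = 0.0541), and the *ken* call was lost without any 1 of the control or *ken* samples (adjusted p between 0.0806 and 0.106). Without known strand, its reads and those of *mthl1* cannot be told apart where they overlap.

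Of the 12 genes listed for the Fog pathway, 2 fell in *pri*, where 3.83% of all genes were called as lower, and none rose. None was called in *ken*, where 5.02% of all genes were. *T48*, a membrane protein that acts beside Fog in apical constriction, went from 768 ± 6.58 normalized counts in control to 513 ± 37.8 in *pri* (log2 fold change -0.58, SE 0.10, adjusted p = 0.00965), with 805 ± 87.6 in *ken*. The difference of *T48* between the mutants was -0.65 (SE 0.10, adjusted p = 0.00499). *Gprk2*, a kinase that desensitizes G protein-coupled receptors, went from 3221 ± 91.4 in control to 2629 ± 51.1 in *pri* (-0.29, SE 0.06, adjusted p = 0.0254), with 3155 ± 102 in *ken* and a difference between the mutants of -0.26 (SE 0.06, adjusted p = 0.0383). The *Gprk2* call held in 11 of 17 settings for *pri* against control and in 7 of 17 between the mutants. Against control it was lost without any 1 of the controls, *pri* replicate 2, *pri* replicate 3 or *ken* replicate 3, with adjusted p between 0.0510 and 0.0986. Between the mutants it was lost without any 1 of the samples but *pri* replicate 1 and *ken* replicate 2 (0.0583 to 0.132). The ligand *fog* (1765 ± 89.2, 1753 ± 79.0 and 1905 ± 122), the second Fog receptor gene *smog* (1142 ± 91.8, 1337 ± 96.5 and 1351 ± 100) and the G alpha gene *cta* (1396 ± 114, 1396 ± 22.6 and 1434 ± 85.6) were not called. The median log2 fold change of the 12 genes was -0.01 in *pri* and 0.06 in *ken*.

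*mthl5*, the heart tube receptor, had 410, 395 and 465 normalized counts in control, 444, 464 and 545 in *pri*, and 330, 411 and 479 in *ken*. The groups overlapped in every comparison. The log2 fold change was 0.19 in *pri* (95% interval -0.15 to 0.53, adjusted p = 0.494), -0.06 in *ken* (-0.40 to 0.28, adjusted p = 0.889) and 0.26 between the mutants (-0.09 to 0.60, adjusted p = 0.364). None of the 5 heart markers was called in any comparison. The share of all genes called was 7.51% in *pri*, 5.02% in *ken* and 8.12% between the mutants.

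*mthl3* and *mthl4* lie 1049 bases apart on 2R and were the members with the widest spread among *pri* samples. *mthl3* had 81.2, 79.1 and 132 normalized counts in control, 171, 59.3 and 64.9 in *pri*, and 159, 73.7 and 141 in *ken*. *mthl4* had 21.0, 11.7 and 22.8 in control, 35.5, 7.42 and 8.37 in *pri*, and 27.2, 22.1 and 33.6 in *ken*. In both genes *pri* replicate 1 was the highest sample and the other *pri* samples were the lowest.

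The summed level of 11 digestive genes of the midgut had the same exception. It was 15594 normalized counts in *pri* replicate 1, 4161 and 4907 in the other *pri* samples, between 4597 and 6308 in control and between 3509 and 5877 in *ken*. Of the 11 genes 1, *Jon99Ciii*, had 0 reads in *pri* replicate 2, and the others had reads in every sample. *LManII* did not share the exception, with 2185, 2572 and 2909 normalized counts in *pri* and 3685 ± 305 in control. It was called as lower in *pri* (log2 fold change -0.53, SE 0.11, adjusted p = 0.0219) and in *ken* (-0.81, SE 0.11, adjusted p = 0.00374). Over all genes 3.83% and 2.81% were called as lower there. None of the other listed midgut genes was called. The part of gut RNA in the *mthl3*, *mthl4* and *mthl10* values was not tested. Between the mutants the log2 fold change of *mthl4* was -0.70 with all samples (SE 0.56, adjusted p = 0.505) and -1.79 without *pri* replicate 1 (adjusted p = 0.0282). *mthl3* and *mthl4* were not called against control, with *mthl3* at 0.01 (SE 0.45) in *pri* and 0.36 (SE 0.45) in *ken*, and *mthl4* at -0.12 (SE 0.57) and 0.58 (SE 0.55).

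*mthl2* was, per kilobase, the lowest member in both mutants, at 2.13 in *pri* and 2.29 in *ken*. It had 8.89 ± 3.33 normalized counts in control, 4.33 ± 2.09 in *pri* and 4.66 ± 3.58 in *ken*. Its samples held between 1 and 14 reads. No difference was detected, and the 95% intervals of the log2 fold change were wide, from -2.49 to 0.45 in *pri* and from -2.40 to 0.46 in *ken*. *mthl2* was also the only member that failed the filters on low counts, which 9 of 10 members passed.

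Of the 6 other genes of the family listed, 5 were found in the table by name. Of these 2 rose in *pri*, where 3.68% of all genes were called as higher. *mthl15* had 258, 258 and 259 normalized counts in control, 348, 382 and 399 in *pri*, and 293, 296 and 299 in *ken*. Its groups did not overlap, with *ken* between control and *pri*. It rose in *pri* by 0.54 on the log2 scale (SE 0.10, adjusted p = 0.0127), a call lost without any 1 of the controls or *pri* replicate 3 (adjusted p between 0.0513 and 0.0587). In *ken* the value was 0.19 (SE 0.10, adjusted p = 0.376), and between the mutants it was 0.35 (SE 0.10, adjusted p = 0.0692).

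*mthl11* was counted at a few reads per sample. It held 2, 2 and 1 reads in control, 7, 14 and 7 in *pri*, and 1, 1 and 2 in *ken*. The *pri* samples were above all others, with means of 1.56 ± 0.365, 10.1 ± 4.15 and 1.28 ± 0.609 normalized counts. In *pri* its log2 fold change was 2.57 (95% interval 1.44 to 3.70, adjusted p = 0.0153), a call that DESeq2 did not give (adjusted p = 0.0552), and that was lost without any 1 of the controls or *pri* replicate 2. *mthl11* did not pass either filter on low counts, so these values exist only without a filter. The difference between the mutants was 2.88 (95% interval 1.71 to 4.05, adjusted p = 0.00934). *mthl6*, *mthl7* and *mthl13* were not called in any comparison.

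**Figure D4:**
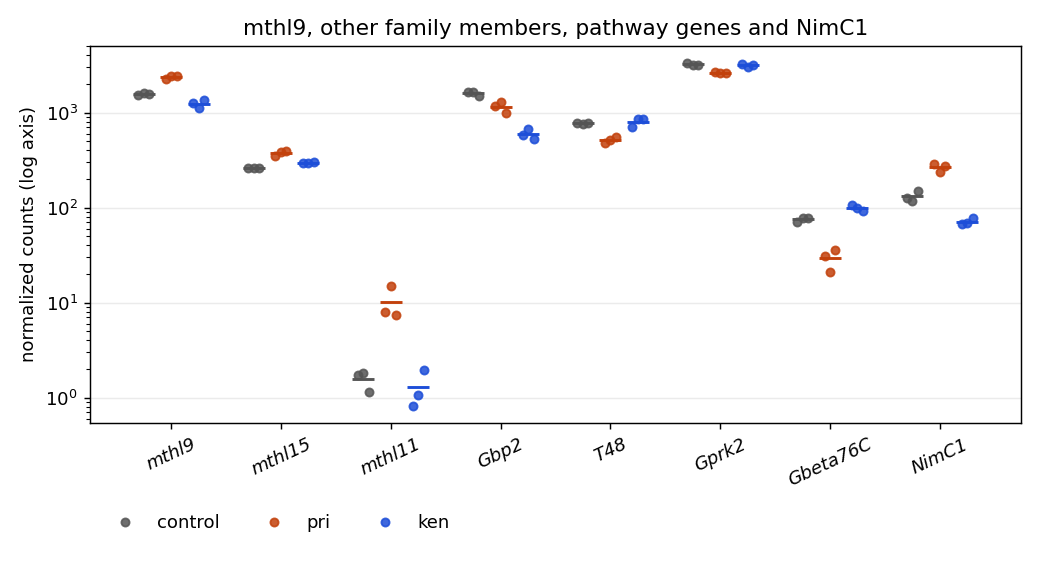
Normalized counts (log axis) of *mthl9*, of the family genes *mthl15* and *mthl11*, of the pathway genes *Gbp2*, *T48*, *Gprk2* and *Gbeta76C*, and of the hemocyte gene *NimC1*, with 3 points per genotype and a bar at the mean. *mthl9* and *NimC1* are highest in *pri* and lowest in *ken*, and the *Gbp2* samples of *ken* lie below those of *pri* and control.

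Among the ligands of these receptors, *Gbp2*, which encodes a growth-blocking peptide, was the only one called. It had 1636, 1648 and 1489 normalized counts in control, 1171, 1299 and 980 in *pri*, and 581, 677 and 525 in *ken*. The 3 groups did not overlap. *Gbp2* fell in *ken* by 1.42 on the log2 scale (SE 0.13, adjusted p = 0.000333), and the call held in 17 of 17 settings. In *pri* the value was -0.47 (SE 0.12, adjusted p = 0.0530), which passed in 6 of 17, and the difference between the mutants was 0.95 (SE 0.13, adjusted p = 0.00203). Its receptor gene *mthl10* was not called in either mutant.

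Of the 8 ligand genes listed, 5 were found in the table by name. In *ken* 1 was called as lower, against 2.81% of all genes, and in *pri* none was called, against 7.51%. The Mth ligand gene *sun* had 3716 ± 338 normalized counts in control, 4326 ± 529 in *pri* and 3487 ± 140 in *ken*. Its log2 fold change was 0.22 in *pri* (SE 0.10, adjusted p = 0.264) and -0.10 in *ken* (SE 0.10, adjusted p = 0.702). *Gbp1*, with 20.1, 18.9 and 17.1 normalized counts in control, 39.0, 19.1 and 26.1 in *pri*, and 18.1, 13.7 and 12.8 in *ken*, and *Gbp3* (185 ± 42.6, 219 ± 152 and 145 ± 24.2) were not called.

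The 11 genes for subunits of heterotrimeric G proteins, through which such receptors signal, gave 1 call in *pri* and none in *ken*. The share of all genes called was 7.51% in *pri* and 5.02% in *ken*. *Gbeta76C*, the G beta subunit known from the eye, had 70.7, 78.2 and 77.6 normalized counts in control, 30.9, 21.2 and 35.6 in *pri*, and 106, 100 and 91.8 in *ken*. It fell in *pri* (log2 fold change -1.37, SE 0.22, adjusted p = 0.00610) and differed between the mutants by -1.76 (SE 0.22, adjusted p = 0.00152), and both calls held in 17 of 17 settings. *Galphaf* came next, with 286 ± 31.1, 385 ± 30.5 and 305 ± 11.7 and a log2 fold change in *pri* of 0.43 (SE 0.12, adjusted p = 0.0623). The median of the 11 was 0.15 in *pri* and 0.07 in *ken*.

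Over all genes 7.51% were called in *pri*, 5.02% in *ken* and 8.12% between the mutants. None of the 7 other family B receptor genes was called in any of these comparisons. They included the receptors of diuretic hormones *Dh31-R*, *Dh44-R1* and *Dh44-R2*, the pigment-dispersing factor receptor *Pdfr*, *hec*, and the adhesion receptors *Cirl* and *stan*. Their median log2 fold change was 0.09 in *pri* and -0.08 in *ken*. The one with the largest fold change in either mutant was *Cirl* in *pri*, at -0.37 (SE 0.16, adjusted p = 0.210).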

How the data were processed

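Polyadenylated RNA of control, *pri* and *ken* embryos was sequenced in 9 samples. The authors deposited read counts per gene, made with STAR 2.6.1d on dm6 with FlyBase annotation, and normalized counts (a signal per gene) that they obtained with DESeq2 1.32.0. The normalized counts equal the counts divided by a size factor per sample. Whether counting used strand is not given in the sources used here. Totals ranged from 21048610 to 28859395 reads per sample.

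Counts of all 15228 genes were fitted with edgeR 4.0.16 in R 4.3.3 (TMM factors, glmQLFit and glmQLFTest, 3 group means, no filter, Benjamini-Hochberg). SE was the log2 fold change divided by the root of F. In place of the study's DESeq2 fit, DESeq2 1.42.0 was an alternative, beside other scalings, filters (filterByExpr, or 10 counts in 3 samples), the replicate block, a robust fit, only the genotypes compared, and leaving out each sample. The script was tested on simulated data. The p-values compare each difference with the spread between samples of the same genotype. In edgeR that spread was estimated over all genotypes fitted, so it was shared by the comparisons.

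Members and lists were chosen with earlier results of these data known. Other genes were named by rule: family genes, pathway lists, marker lists, 5 neighbours of *mthl8*, genes overlapping members, and the 5 most correlated with *mthl8*. *Hml*, *He*, *PPO1*, *srp*, *Pxn*, *Jon99Ciii* and *LManII* were named after their values were seen. Genes were matched by identifier to the Ensembl annotation (15159 of 15228). Same-numbered samples deviated together between control and *ken* (r 0.238 to 0.554) and between *pri* and *ken* (0.173 to 0.604), above the minimum of 0.1. Between control and *pri* this held for replicates 1 (0.427) and 2 (0.582) but not for replicate 3 (-0.13). Some samples with different numbers also passed 0.1, such as control 2 with *pri* 3 (0.437) and *pri* 3 with *ken* 2 (0.417). The targeted gene *pri* is not reported here.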

Additional observations from a re-analysis of the deposited data

Results flagged for a closer look

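The effect against the shared controls differed between *pri* and *ken*, in the test of the difference itself, for *ken* itself and for 8 of the other genes described. Given as the effect in *pri* minus the effect in *ken* on the log2 scale, it was 0.93 for *mthl9*, 2.88 for *mthl11*, 0.95 for *Gbp2*, 1.90 for *NimC1*, 0.93 for *PPO2*, -0.65 for *T48*, -0.26 for *Gprk2* and -1.76 for *Gbeta76C*. In *mthl9* and *NimC1* every *pri* sample lay above and every *ken* sample below the controls.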

How the results depend on the processing

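*mthl9* stayed called in *pri* and between the mutants under each of the 17 other settings. For *pri* against control, 2 members (*mthl9* and *mthl10*) were called with DESeq2, with library totals and with the replicate block, where 1709, 1160 and 1665 genes were called in place of 1144, and 1 to 2 when 1 sample, or *pri* and *ken* replicate 1 together (a choice made after seeing the data), was left out. With samples left out in this way the genes called numbered 587 to 1618. For *ken* against control, 1 member, *mthl9*, was called with DESeq2, both filters and the replicate block, and 0 to 1 with samples left out. There 765 genes called became 1239 with DESeq2, 1210 with the block and 392 to 1323 with samples left out. Between the mutants 1237 genes became 746 with only the genotypes compared and 794 to 1277 with samples left out, where 1 to 2 members were called, *mthl4* being the added one.

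Signs changed only where no call was made. *mthl3* in *pri* became -0.00366 with only the genotypes compared and -0.10 with the block, and *mth* in *ken* became 0.0033 with library totals. With samples left out, the log2 fold change ran from -0.65 to 0.28 for *mthl3*, -1.21 to 0.24 for *mthl4* and -0.030 to 0.066 for *mthl14* in *pri*. It ran from -0.13 to 0.12 for *mth*, -0.16 to 0.0014 for *mthl1*, -0.20 to 0.070 for *mthl5* and -0.055 to 0.00047 for *Gprk2* in *ken*, and from -0.17 to 0.032 for *mthl1*, -0.63 to 0.58 for *mthl2* and -1.46 to 0.020 for *lncRNA:CR46147* between the mutants. Beside *mthl9* in *ken*, the block changed no call of a named gene in the comparisons with *ken*. In *pri* against control, where replicate 3 did not pair by number, the block also added *Gbp2* (adjusted p = 0.0073). The cause was not tested. Few reads limit *mthl2*, *mthl4*, *mthl11* and the control level of *mthl8*.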
